A study of Rattus norvegicus with 6 samples.

Results

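Fabp4, Lpl, Scd, Cd36, Fasn and Pparg take up, carry, make, desaturate or store fatty acids, or regulate genes that do. The genes were selected on their intensities on the arrays described here, with the differences between cultured, P4 and P0 ovaries known, and their probe sets were then found by name: every probe set to which the platform annotation gives exactly 1 symbol, equal to 1 of the 6. The rule found 11 probe sets, for 6 of the 4736 genes named on the array. Because the intensities were known when the genes were picked, the values of these 6 genes are given as a description, with standard errors but without a p-value for any of them. Whether a probe set passed the threshold of the fit over the whole array is stated only so that it can be read beside the share of all probe sets that passed.

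RNA of whole rat ovaries had been hybridized to 6 Affymetrix rat genome arrays, 2 for each of 3 groups. The cultured group held ovaries removed on the day of birth and kept for 7 days on floating filters in DMEM and Ham's F-12 medium with bovine serum albumin, Albumax, transferrin, insulin, ascorbic acid, penicillin and streptomycin. The P4 group held ovaries removed on postnatal day 4, and the P0 group held ovaries removed on the day of birth, both without culture. Each array carried RNA from a pool of about 20 ovaries, and the labels call the pools of a group independent. Progesterone treatment of ovaries in culture is mentioned in the study design but in none of the sample labels, so whether either cultured array received it is not settled here. Cultured ovaries were also taken later than P4 and P0 ovaries, so age and culture cannot be told apart. Whole ovaries hold many cell types, so more cells of a type and more RNA per cell cannot be told apart in any value below.

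Lipoprotein lipase, encoded by Lpl, frees fatty acids from the triglycerides of circulating lipoproteins, and the membrane protein CD36 helps cells to take fatty acids up. Inside the cell, FABP4 binds and carries them, fatty acid synthase (Fasn) makes palmitate from acetyl and malonyl units, and stearoyl-CoA desaturase (Scd) turns saturated into monounsaturated fatty acids, which are favoured for storage as triglyceride. PPAR-gamma, encoded by Pparg, is a nuclear receptor that binds fatty acid derivatives and drives fat cell formation, with Fabp4, Lpl and Cd36 among its known targets. Adipocytes, macrophages and the endothelium of small vessels are known sources of several of these transcripts, and ovarian steroid-producing cells also handle lipid.

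RefSeq promoter sequences of the GRCr8 build were matched by symbol for 3 of the 6 genes, Scd, Cd36 and Pparg, the last with 2 annotated starts. The 250 bases before the start are shown for Scd, whose brighter probe set separated the cultured from the other arrays, and for Cd36, whose tested probe set did not. Capitals mark any match, on either strand, to 1 of 5 motifs. These were the TATA box, searched as TATAAA, and the CCAAT box, searched by the letters of its name. The others were the half-site of nuclear receptors, searched as AGGTCA, the E-box, a site of helix-loop-helix factors searched as CANNTG, and the GC box, a site of Sp factors searched as GGGCGG.
Scd, chr1:253231732-253231981, minus strand: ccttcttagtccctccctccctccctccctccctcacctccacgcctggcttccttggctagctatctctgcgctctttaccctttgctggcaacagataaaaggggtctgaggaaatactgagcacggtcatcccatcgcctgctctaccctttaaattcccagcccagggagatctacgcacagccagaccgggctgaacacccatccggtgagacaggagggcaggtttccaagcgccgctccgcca
Cd36, chr4:18246332-18246581, plus strand: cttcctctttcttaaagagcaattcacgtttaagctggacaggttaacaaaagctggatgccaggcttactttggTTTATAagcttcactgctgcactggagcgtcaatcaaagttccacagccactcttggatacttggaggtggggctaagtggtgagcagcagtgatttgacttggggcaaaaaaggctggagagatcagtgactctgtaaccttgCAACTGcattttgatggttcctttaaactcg

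The Scd window held none of these motifs, and the Cd36 window held 1 TATA box, on the strand opposite to the gene, and 1 E-box, whose first base lay 31 bases before the start. Among 33469 promoter windows of the same length, 12.9% held a TATA box, 34.0% a CCAAT box, 14.1% the half-site, 65.5% an E-box and 30.5% a GC box. The half-site repeated after 1 base (AGGTCANAGGTCA), the arrangement that PPAR-gamma is known to bind with its partner RXR, was in 0.0508% of the windows and in none of those of Scd, Cd36 and Pparg. Only exact matches to these letters were sought, and a window of this length leaves out more distant elements. The lack of a match therefore does not show that a site is absent.

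The values are linear intensities that had been scaled to the same level on each array, with a trimmed mean of 125.2. The brightest reading of 23 control probe sets that have no matching transcript in the samples was 20.0 on any array, and readings at or under it are called dim here. For the fit, 7.7 was added to each intensity before taking log2, and probe sets whose average log2 level over the 6 arrays lay under the 30th percentile, an intensity of 14.8, were left out. The 6118 that remained include some that are dim on most arrays. Of the 11 probe sets of the 6 genes, 9 were tested, and the second probe sets of Scd and Cd36 were not. The number of arrays limits the precision, with a median standard error of 0.259 for log2 changes. Each cultured array has a chip batch of its own in the labels, so batch and culture cannot be told apart, while P4 and P0 arrays with the same replicate number share a chip batch. P0 replicate 1 read 1324.2 on the control probe set for the 3' end of the GAPDH transcript, against 2162.3 to 2775.1 on the other arrays.

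Fabp4, Lpl and Scd read far higher in cultured ovaries than in either uncultured group, whereas Cd36 and Fasn did not separate the groups and Pparg read slightly higher. In cultured against P0 ovaries, 5 of the 9 tested probe sets passed the limma threshold (adjusted p under 0.05), all of them higher and belonging to 3 genes, where 3.48% of all 6118 passed higher. In cultured against P4 ovaries the same count was 5 of 9, where 2.16% of all passed higher. In P4 against P0 ovaries none of the 9 passed, where 0.850% of all passed higher and 0.229% lower, and 2 had an unadjusted limma p under 0.05, as did 13.0% of all. The median log2 change of the 9 probe sets was 2.52 for cultured against P0, 2.12 for cultured against P4 and 0.18 for P4 against P0, beside -0.08, -0.04 and -0.05 over all tested probe sets. Since the genes were chosen with these arrays known, nothing is read from these counts.

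**Figure D1:**
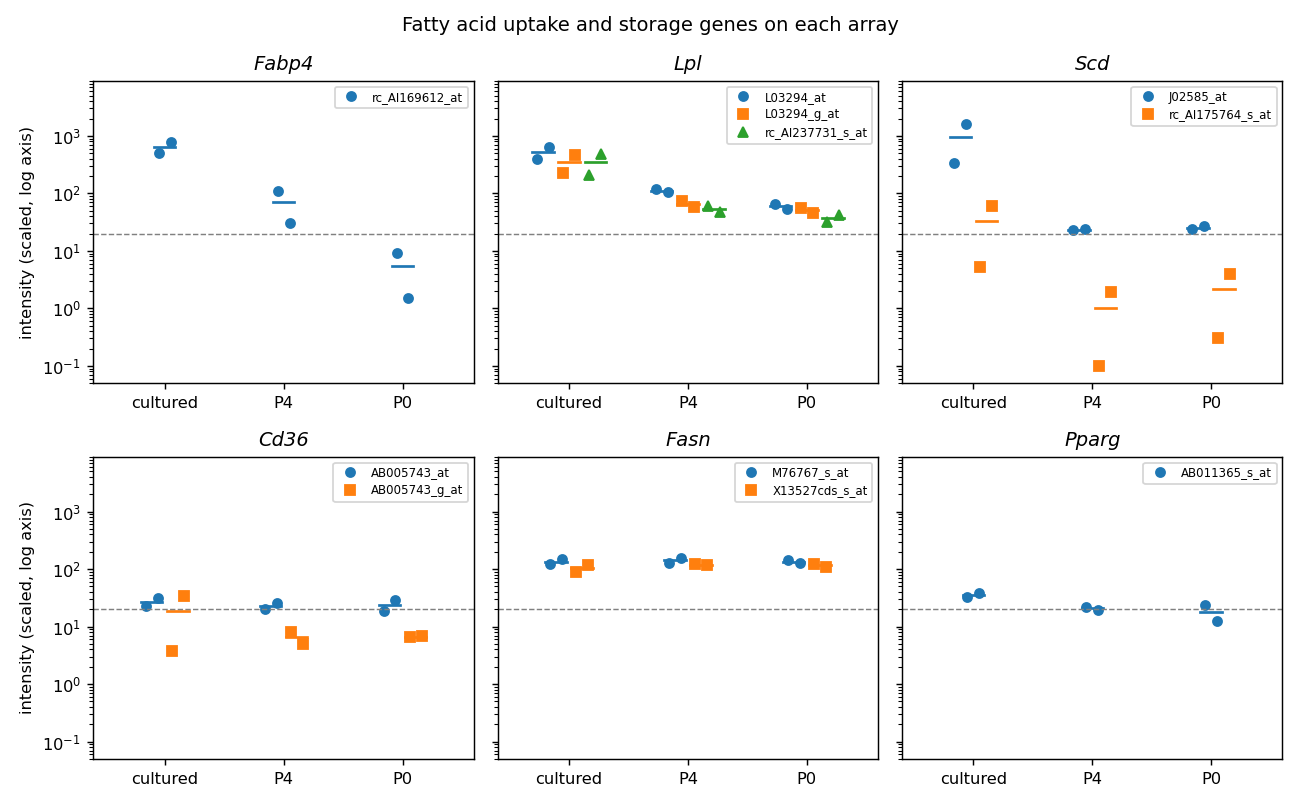
Intensity (log axis) of each of the 11 probe sets on each of the 6 arrays, with cultured ovaries on the left, P4 in the middle and P0 on the right. Points are arrays, short bars are group means (n = 2), and the dashed line is the brightest reading of the control probe sets, 20.0. Fabp4, all 3 Lpl probe sets and the brighter Scd probe set lie higher on both cultured arrays than on the other 4 arrays, while those of Fasn overlap.

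Fabp4, the carrier that gives mature adipocytes and macrophages much of their fatty acid binding capacity, has 1 probe set (rc_AI169612_at). It read 512.3 and 783.3 on the cultured arrays, 111.4 and 30.1 on the P4 arrays, and 9.3 and 1.5 on the P0 arrays. The 3 groups did not overlap and ran in that order, and both P0 readings were dim. The mean was 648 ± 192 in cultured ovaries and 70.8 ± 57.5 in P4 ovaries (SD, n = 2 each), 9.16 times as high in culture. On the log2 scale the change from P4 was 3.26 (SE 0.50). Against P0, with the dim readings set to 20.0, Fabp4 was at least 31.7-fold higher in cultured ovaries. The call against P0 held without any 1 of the 6 arrays, but the call against P4 was lost without cultured replicate 1 or cultured replicate 2, at log2 changes between 2.43 and 4.08 over the 6 omissions.

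Fabp4 was also at least 2.9-fold higher in P4 than in P0 ovaries. Its P4 arrays differed among themselves by more than those of any other gene of the set that read above the dim level on both, 111.4 against 30.1. Because both P0 readings were dim, its fitted log2 change depends on the number added to the intensities: it was 2.42 with 7.7, 2.90 with 3.85 and 1.89 with 15.4, and passed with none of them. An alternative fit with the chip batch as a block used only the P4 and P0 arrays. It thereby also left out the spread between the cultured arrays, and these effects were not told apart. Fabp4 passed in that fit, where 3.17% of all tested probe sets passed higher and 1.96% lower. It also passed without P4 replicate 2, where 0.605% of all passed higher, but not without P4 replicate 1.

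Lpl is covered by 3 probe sets, and all 3 gave the same order of groups. The brightest, L03294_at, read 396.7 and 652.7 on the cultured arrays, 117.5 and 105.3 on the P4 arrays, and 66.1 and 53.2 on the P0 arrays. No group overlapped another, and cultured replicate 2 was the brightest array. Means were 525 ± 181 in cultured, 111 ± 8.63 in P4 and 59.6 ± 9.12 in P0 ovaries (SD, n = 2 each). The log2 change was 2.95 (SE 0.27) for cultured against P0 and 2.12 (SE 0.27) for cultured against P4, or 8.80 and 4.71 times as high in the means.

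The other Lpl probe sets, L03294_g_at and rc_AI237731_s_at, had log2 changes of 2.52 (SE 0.32) and 2.88 (SE 0.36) for cultured against P0, and of 2.18 and 2.42 for cultured against P4. L03294_g_at read 228.6 and 462.2 in cultured ovaries, 73.9 and 58.9 in P4 ovaries, and 55.7 and 45.9 in P0 ovaries. The third read 209.0 and 485.5, 59.6 and 48.0, and 32.0 and 41.9 in the same groups. Each of the 3 calls against P0 and of the 3 against P4 held without any 1 array. Between P4 and P0 ovaries Lpl was higher on both P4 arrays by all 3 probe sets, at log2 changes of 0.83 (SE 0.27), 0.34 (SE 0.32) and 0.46 (SE 0.36), and 18.6% of all tested probe sets were likewise higher on both P4 arrays. The first of these passed only with the chip batch as a block, where 3.17% of all passed higher, with 0.76 in batch A and 0.89 in batch B.

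Scd had the largest span within the cultured group. Its brighter probe set, J02585_at, read 334.5 and 1580.1 on the cultured arrays, 22.7 and 24.0 on the P4 arrays, and 23.7 and 27.2 on the P0 arrays. P4 and P0 readings overlapped just over the dim level, and both cultured arrays lay far over them. The mean of 957 ± 881 in cultured ovaries (SD, n = 2) carries an error nearly as large as itself, because cultured replicate 2 was 4.72 times as bright as replicate 1. The log2 change was 4.48 (SE 0.55) for cultured against P0 and 4.57 (SE 0.55) for cultured against P4. Leaving out cultured replicate 1 or 2 gave 5.58 or 3.37 against P0, and 5.68 or 3.46 against P4, and the calls held without any 1 array. For P4 against P0 the change was -0.09, with a 95% interval of -1.33 to 1.15.

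The second Scd probe set, rc_AI175764_s_at, read 5.2 and 61.2 on the cultured arrays, 0.1 and 1.9 on the P4 arrays, and 0.3 and 4.0 on the P0 arrays. Only cultured replicate 2 was over the dim level, so no fold is given, and this was also the brighter cultured array on the first probe set. Scd2, a closely related desaturase gene with 6 probe sets, can share signal with Scd, so the Scd values are uncertain to that extent. The brightest Scd2 probe set, rc_AA875269_at, read 1300.8 and 905.4 in cultured ovaries, 769.8 and 566.3 in P4 ovaries, and 720.7 and 754.4 in P0 ovaries, and there cultured replicate 1 was the brighter one. Its log2 change for cultured against P0 was 0.55 (limma adjusted p = 0.202), and another Scd2 probe set, M15114_g_at, passed with 0.90 (limma adjusted p = 0.0394).

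Cd36, the fatty acid receptor and transporter, stayed near the dim level in all groups. AB005743_at read 22.4 and 31.8 on the cultured arrays, 20.0 and 25.6 on the P4 arrays, and 18.5 and 28.6 on the P0 arrays, so the 3 groups overlapped. Its log2 change was 0.16 for cultured against P0 (95% interval -0.53 to 0.86) and 0.18 for cultured against P4 (95% interval -0.51 to 0.88). AB005743_g_at was over the dim level only on cultured replicate 2, at 34.2 against 3.8 on cultured replicate 1 and 4.9 to 8.1 on the P4 and P0 arrays.

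Fasn, which makes fatty acids anew, was clearly detected on every array and overlapped between all groups. M76767_s_at read 121.9 and 147.6 on the cultured, 130.1 and 158.3 on the P4, and 143.0 and 125.5 on the P0 arrays. Its log2 change for cultured against P0 had a 95% interval of -0.50 to 0.50. X13527cds_s_at read 89.2 and 117.1, 120.3 and 116.8, and 123.1 and 108.3 in the same groups, with an interval of -0.67 to 0.34. These intervals hold no change as large as the 2.95 of Lpl in the same comparison, although the difference between the genes was not tested.

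Pparg, the receptor, read 32.8 and 38.2 on the cultured arrays, 22.2 and 19.3 on the P4 arrays, and 23.3 and 12.5 on the P0 arrays. Both cultured arrays were the brightest, but only by a small margin over the dim level, and P4 and P0 overlapped. The log2 change was 0.78 (SE 0.31) for cultured against P0 and 0.60 (SE 0.31) for cultured against P4, and neither passed. Of all tested probe sets, 21.3% were higher on both cultured arrays than on both P0 arrays and 19.1% than on both P4 arrays.

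**Figure D2:**
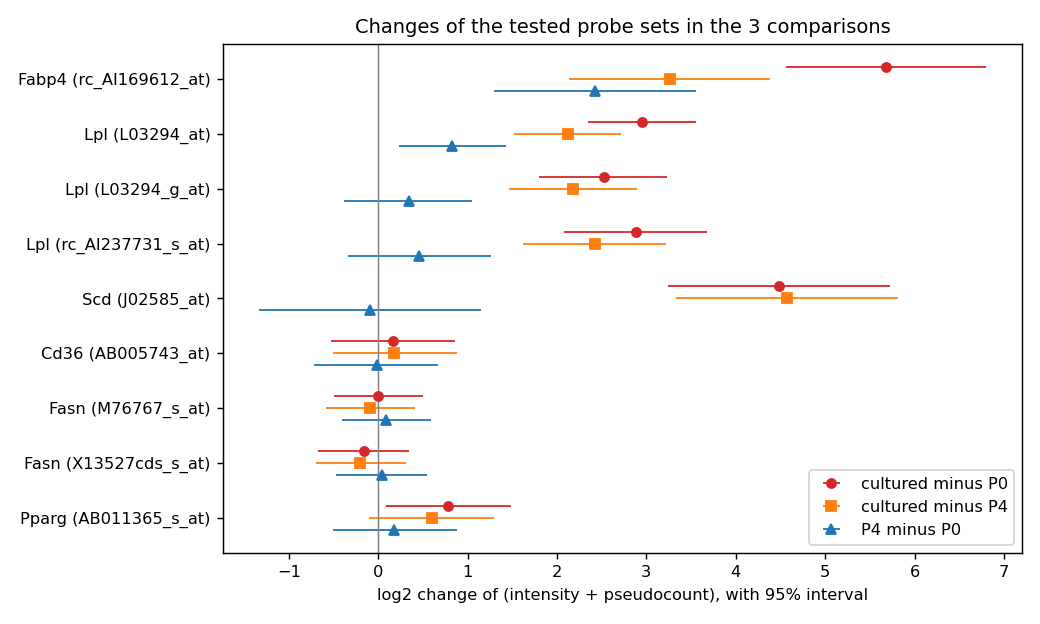
Log2 change (horizontal axis) of the 9 tested probe sets in cultured minus P0, cultured minus P4 and P4 minus P0 ovaries, with 95% intervals from the limma fit. The probe sets of Lpl, Fabp4 and Scd lie between 2.12 and 5.68 in both comparisons with culture, and those of Cd36, Fasn and Pparg between -0.20 and 0.78. The values of Fabp4 against P0 depend on the number added to the intensities, since both P0 readings were dim.

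The cultured arrays differed from each other in one direction across the whole set. All 11 probe sets read higher on cultured replicate 2 than on replicate 1, where 55.6% of all tested probe sets did. Among the 9 tested probe sets the ratio ran from 1.16 for Pparg and 1.21 for the brighter Fasn probe set through 1.53 for Fabp4 and 1.65 for the brightest Lpl probe set to 4.72 for the brighter Scd probe set. Each cultured array has its own chip batch, and the part of the batch or of the unsettled hormone treatment in this difference was not tested.

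Further lipid genes were described by 6 lists that leave out the 6 genes and hold 80 genes on the array. Of these, 61 were tested on their brightest probe set. The lists were chosen with earlier results of these data known, so the p-values of their genes describe the fit and are not independent tests. In cultured against P0 ovaries 5 of the 61 rose and 3 fell, where 3.48% of all tested probe sets rose and 1.95% fell. In cultured against P4 ovaries 3 rose and 1 fell, beside 2.16% and 0.621% of all. In P4 against P0 ovaries none passed in limma, and 11 of the 61 had an unadjusted p under 0.05, beside 13.0% of all tested probe sets. With the chip batch as a block 4 rose (Acadl, Acsl1, Cpt2 and Slc25a1) and 2 fell (Apoc1 and Fabp5), beside 3.17% and 1.96% of all in that fit.

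In the list of fatty acid binding, transport and activation, 1 of 10 tested genes rose, 2 fell and 7 did not pass in cultured against P0 ovaries, with a median log2 change of 0.31. Acsl1, the enzyme that activates long fatty acids by linking them to coenzyme A, read 198.4 and 323.2 in cultured ovaries, 99.6 and 81.7 in P4 ovaries, and 46.2 and 38.4 in P0 ovaries. It rose by a log2 change of 2.39 against P0 (limma adjusted p = 0.00123), a call that held without any 1 array, and of 1.41 against P4 (limma adjusted p = 0.0231), a call lost without cultured replicate 2, P4 replicate 1 or P4 replicate 2. A second Acsl1 probe set, rc_AI044900_s_at, rose by 1.91 against P0 (limma adjusted p = 0.00489), while rc_AA893242_at had a log2 change of -0.49 (limma adjusted p = 0.345). Neither passed against P4, at log2 changes of 1.16 and -0.37 (limma adjusted p = 0.0631 and 0.63). The probe set rc_AA893242_g_at was not tested, and read 17.3 and 30.2 in cultured, 11.7 and 12.0 in P4, and 2.2 and 2.7 in P0 ovaries.

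Fabp3, the heart-type fatty acid carrier, was lower in culture. It read 52.0 and 41.7 in cultured ovaries, 507.6 and 230.5 in P4 ovaries, and 178.4 and 184.9 in P0 ovaries, so the cultured arrays were the dimmest. It fell by 2.69 on the log2 scale against P4 (limma adjusted p = 0.0022), a call that held without any 1 array, at a highest adjusted p of 0.0479. Against P0 it fell by 1.80 (limma adjusted p = 0.0146), but this call was lost without either cultured or either P0 array (highest limma adjusted p = 0.142). Fabp5, the epidermal-type carrier, read 759.2 and 820.6 in cultured, 494.5 and 434.7 in P4, and 741.5 and 726.1 in P0 ovaries, and passed only as lower in P4 than in P0 ovaries with the chip batch as a block (limma adjusted p = 0.0478, against 0.131 without). A probe set assigned to Fabp6, the ileal carrier, fell by 0.82 (limma adjusted p = 0.0191), but its other probe set was dim on all 6 arrays and the call was lost without any cultured or P0 array, so it is uncertain.

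**Figure D3:**
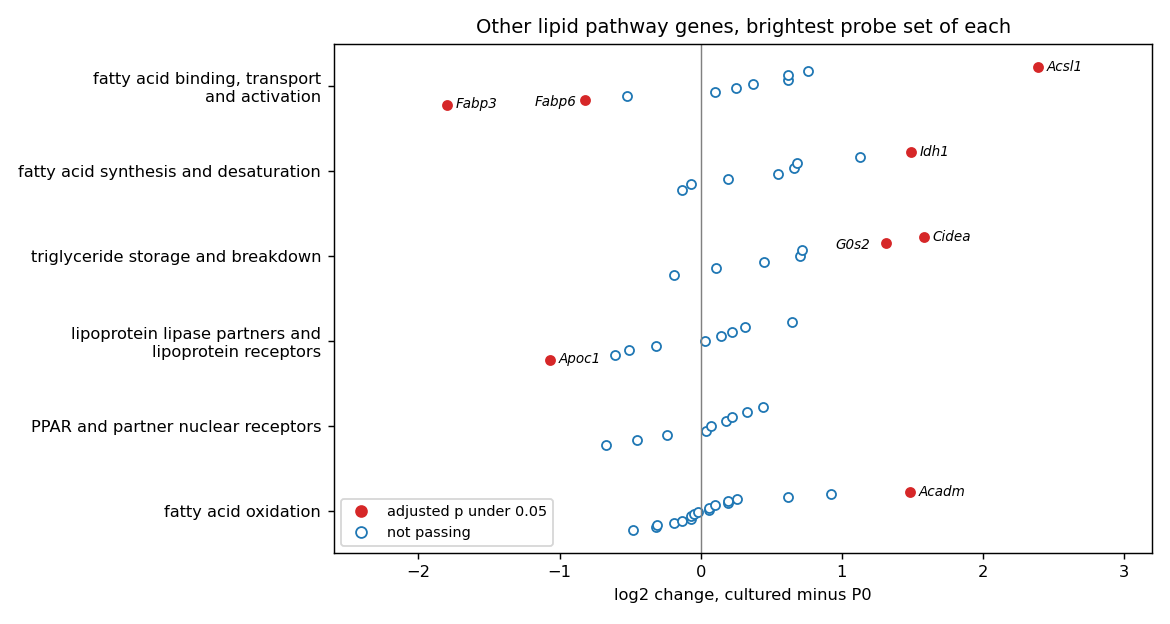
Log2 change in cultured minus P0 ovaries (horizontal axis) of the 61 tested genes of the 6 lipid lists, 1 point a gene, with filled points for a limma adjusted p under 0.05. The 8 filled points are Acsl1, Idh1, Cidea, G0s2 and Acadm on the higher side and Fabp3, Apoc1 and Fabp6 on the lower side.

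In fatty acid synthesis and desaturation, 1 of 8 tested genes rose and 7 did not pass in cultured against P0 ovaries, with a median of 0.60. The riser was Idh1, the cytosolic isocitrate dehydrogenase that supplies NADPH, with 465.4 and 461.6 in cultured, 291.6 and 221.4 in P4, and 200.3 and 126.7 in P0 ovaries (log2 change 1.49, limma adjusted p = 0.0113). In triglyceride storage and breakdown, 2 of 7 rose and 5 did not pass, with a median of 0.70. Cidea, a lipid droplet protein, read 45.0 and 99.7 in cultured ovaries and was dim on all 4 other arrays. It was at least 3.35-fold higher than in either P4 or P0 ovaries (limma adjusted p = 0.0349 and 0.0314). G0s2, an inhibitor of triglyceride breakdown, read 186.9 and 228.3 in cultured, 126.8 and 65.3 in P4, and 98.5 and 62.2 in P0 ovaries (log2 change 1.31 against P0, limma adjusted p = 0.0492). Against P4, Idh1 did not pass (log2 change 0.85, limma adjusted p = 0.139). Plin2, which coats lipid droplets in many cell types, did not pass for P4 against P0 (log2 change 0.64, limma adjusted p = 0.259). The calls of Idh1, Cidea and G0s2 against P0 were each lost without 3 or 4 of the arrays, with highest limma adjusted p of 0.102, 0.17 and 0.252. Cidea lost its call against P4 without cultured replicate 2 or either P4 array (highest limma adjusted p = 0.201).

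Among partners of lipoprotein lipase and lipoprotein receptors, none of 9 rose, 1 fell and 8 did not pass in cultured against P0 ovaries, with a median of 0.03. Apoc1, an apolipoprotein that inhibits lipoprotein lipase, read 407.7 and 307.5 in cultured, 351.3 and 415.9 in P4, and 659.3 and 855.9 in P0 ovaries. It fell by 1.07 (limma adjusted p = 0.0251), a call lost without either cultured array or P0 replicate 2 (highest limma adjusted p = 0.192). Its log2 change of -0.96 for P4 against P0 passed only with the chip batch as a block (limma adjusted p = 0.00975, against 0.0893 without). Apoe, an apolipoprotein that macrophages and steroid-producing cells secrete, did not pass for cultured against P4 (log2 change 0.35, limma adjusted p = 0.294). In the list of PPAR and partner nuclear receptors none of 9 passed in any comparison by limma, and none had an unadjusted p under 0.05. The genes of smallest p there were Cebpb, a transcription factor that acts early in fat cell formation, for cultured against P0 (log2 change 0.44, limma adjusted p = 0.261), the RXR gene Rxra for cultured against P4 (-0.59, 0.459) and its relative Rxrg for P4 against P0 (0.41, 0.556).

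Of 18 tested fatty acid oxidation genes, 1 rose and 17 did not pass in cultured against P0 ovaries, with a median of 0.02. Acadm, the medium-chain acyl-CoA dehydrogenase, read 296.9 and 281.3 in cultured, 121.4 and 117.7 in P4, and 110.8 and 87.5 in P0 ovaries. It rose by a log2 change of 1.48 against P0 (limma adjusted p = 0.00496) and of 1.22 against P4 (limma adjusted p = 0.0151). The first call was lost without either cultured array (highest limma adjusted p = 0.0548) and the second without either cultured or either P4 array (highest limma adjusted p = 0.117). Cpt2, the inner carnitine palmitoyltransferase of mitochondria, had a log2 change of 0.80 for P4 against P0 that passed only with the chip batch as a block (limma adjusted p = 0.045, against 0.136 without). Slc25a1, the mitochondrial citrate carrier of the synthesis list, had one of 0.71 with the same outcome (limma adjusted p = 0.0399, against 0.189).

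Markers of cell types known to express these genes were measured on the same arrays. The markers were also chosen with earlier results of these data known, so their p-values are not independent tests. Of 9 adipocyte markers on the array, 6 were tested and 1, Cfd, passed as higher in cultured ovaries. Of all tested probe sets, 3.48% passed higher against P0 and 2.16% against P4. Cfd, the complement protease adipsin, read 225.4 and 238.3 in cultured, 6.8 and 13.1 in P4, and 21.8 and 5.0 in P0 ovaries, and was at least 11.6-fold higher in cultured than in P4 ovaries. It was kept by the filter only through the cultured arrays, where it is high, so its call is not counted as support. Plin1, which coats the lipid droplets of adipocytes, read 8.9 and 4.3 in cultured ovaries and 1.8 to 2.6 on the other arrays, and Ucp1 was dim on all 6 arrays. The summed intensity of the list was 981.1 and 993.4 in cultured, 836.5 and 915.8 in P4, and 993.4 and 898.5 in P0 ovaries. Of this, 1 Lep probe set gave 506.4 to 760.2, while the other 2 Lep probe sets read 37.5 or less. The brightest Lep probe set read 531.5 and 506.4 in cultured ovaries and 632.1 to 760.2 on the other arrays. The sum therefore does not show how the other markers moved.

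Of 7 tested macrophage markers, 6 passed as higher in cultured against P0 and in cultured against P4 ovaries. Of all tested probe sets, 3.48% and 2.16% passed higher in these comparisons. The 6 include Fcgr2b, which was kept by the filter only through the cultured arrays, where it is high. Its call is therefore not counted as support. Lyz2, a macrophage lysozyme, read 2267.0 and 955.7 in cultured, 89.0 and 102.8 in P4, and 110.8 and 141.3 in P0 ovaries (log2 change 3.48 against P0, limma adjusted p = 0.000587). The summed intensity of 8 markers on the array was 3737.8 and 1804.3 in cultured, 263.0 and 341.1 in P4, and 430.7 and 495.6 in P0 ovaries. On the brightest probe set of each, all 8 read higher on cultured replicate 1, the array on which the 6 lipid genes read lower. A second Cd14 probe set, AF087944mRNA_s_at, ran the other way, at 151.8 on cultured replicate 1 and 161.1 on replicate 2. None of 4 tested endothelial markers passed in any comparison by limma. An unadjusted limma p under 0.05 was reached by 3, 0 and 1 for cultured against P0, cultured against P4 and P4 against P0. The 3 were lower in cultured ovaries: Cav1, Kdr and Flt1, at log2 changes of -1.29, -0.69 and -0.65. The 1 was Cav1, lower in P4 ovaries at -1.01. The share of all tested probe sets with such a p was counted only for P4 against P0, at 13.0%. Their list summed to 238.4 and 351.7 in cultured, 290.4 and 414.1 in P4, and 458.1 and 561.9 in P0 ovaries, with Icam2 and Sele dim on every array. Vwf was dim on its brightest probe set, and its other probe set was over the dim level only on P0 replicate 1, at 21.9. The part of any cell type in the values of Fabp4, Lpl and Scd was not tested. All 10 ovary markers were on the array and tested. Of these, 3 rose and none fell in cultured against P0 ovaries, beside 3.48% and 1.95% of all tested probe sets. In cultured against P4 ovaries none rose and 3 fell, beside 2.16% and 0.621%. In P4 against P0 ovaries 5 rose and none fell, beside 0.850% and 0.229%. The zona pellucida gene Zp2 of the oocyte read 1373.9 and 1309.9 in cultured, 1782.3 and 1466.4 in P4, and 282.4 and 338.3 in P0 ovaries. Inha, the inhibin alpha subunit of granulosa cells, read 360.7 and 462.3 in cultured, 1970.3 and 1349.1 in P4, and 238.0 and 394.7 in P0 ovaries, and fell by 1.98 on the log2 scale in cultured against P4 ovaries (limma adjusted p = 0.00465). Amh, the anti-Müllerian hormone, and Cyp19a1, the aromatase, also fell there, and Cyp19a1 and Cyp17a1, a further steroid enzyme, were dim in cultured and P0 ovaries. Star, another of the 10 markers, did not pass on its brightest probe set (log2 change 1.74 against P0, limma adjusted p = 0.109). Its other probe set, AB001349_at, read 47.8 and 114.0 in cultured, 76.7 and 61.0 in P4, and 12.7 and 5.2 in P0 ovaries. That probe set passed as higher than P0 in cultured (2.34, limma adjusted p = 0.0102) and P4 ovaries (2.23, limma adjusted p = 0.0347).

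**Figure D4:**
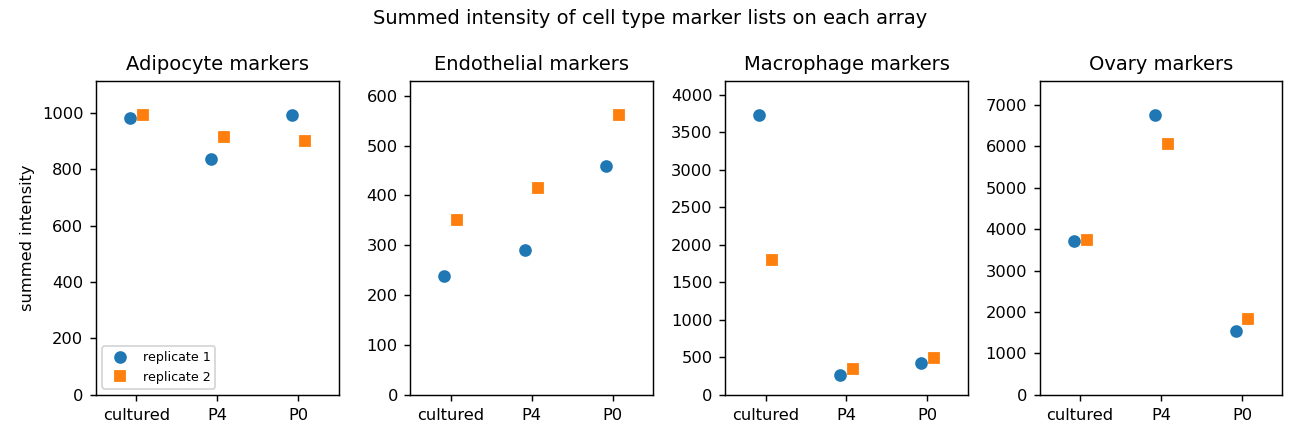
Summed intensity of the adipocyte, endothelial, macrophage and ovary marker lists on each array, with cultured ovaries on the left of each panel, then P4 and P0, and a circle for replicate 1 and a square for replicate 2. The macrophage sum is 3737.8 and 1804.3 on the cultured arrays against 263.0 to 495.6 elsewhere. The adipocyte sum lies between 836.5 and 993.4 on all 6 arrays. The brightest Lep probe set gives 506.4 to 760.2 of the adipocyte sum, which therefore does not show how the other markers moved.

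The genes whose patterns were nearest to those of Fabp4, Lpl and Scd were found by the root mean square difference of log2 values, each centred on its own mean over the 6 arrays. For Lpl the nearest were S100g, a calcium-binding protein (0.287), Acsl1 (0.306) and S100b, another calcium-binding protein (0.312). Like Lpl, these 3 read higher on cultured replicate 2 than on replicate 1, S100g at 183.5 against 101.6. Both cultured arrays entered the difference by which the genes were picked, so this shared order is not a separate result. For Scd they were the metalloproteases Mmp12 (0.794) and Mmp7 (0.796) and Cfd (0.838). Unlike Scd, Mmp12 and Mmp7 read higher on cultured replicate 1, at 226.4 against 190.9 and 536.0 against 388.9. Mmp12 was dim on the P4 and P0 arrays, at 3.3 to 9.5. Mmp12, Cfd and S100b were kept by the filter only through the cultured arrays, where they are high. Their nearness is therefore not counted as support. For Fabp4 no gene came close: the nearest were the chemokine Ccl2 (1.21), Lpl (1.22) and Spp1, the matrix protein osteopontin (1.22). Unlike Fabp4, Ccl2 and Spp1 read higher on cultured replicate 1, Spp1 at 1482.2 against 903.9. Ccl2 read 545.7 and 367.5 in cultured, 41.5 and 46.0 in P4, and 48.0 and 24.5 in P0 ovaries, without the step between P4 and P0 that Fabp4 showed.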

How the data were processed

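The series holds 6 arrays in 3 groups of 2, grouped by the sample titles. Per the labels, RNA was extracted with Trizol, labelled with biotin and hybridized by the maker's procedures. The deposited intensities are linear values for 8799 probe sets that the authors had scaled, since the mean after trimming 2% at each end was 125.2 on every array. The algorithm is not given in the sources used here.

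No further normalization was applied. The pseudocount of 7.7 was the 20th percentile of all values. Left out were 59 control probe sets and the 2622 whose average on the log2 scale fell below the 30th percentile. One model with 3 group means was fitted to the remaining 6118 with limma 3.58.1 in R 4.3.3, with a variance trend (3 residual and 6.45 prior degrees of freedom), two-sided, with Benjamini-Hochberg adjustment over all of them and a threshold of 0.05. The fit was checked on simulated data, with changes placed only in probe sets at or above the median level. Spreads were drawn there without regard to level, so the check does not cover changes of dim probe sets or the variance trend. An exact permutation test of 2 against 2 arrays cannot go below p = 0.33. With 2 pools a group, p-values rest on the spread between arrays of the same group, taken over the 3 groups and moderated by the prior. The arrays of a group differ in chip batch, so pool and batch cannot be told apart in that spread.

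Symbols came from the platform annotation: 7018 probe sets had 1 symbol, 308 several and 1473 none, and 6994 were matched by gene number to RefSeq, which changed 0 symbols. The 6 genes, the lists and the markers were chosen with earlier results of these data known, and the dim level of 20.0, the highest of 23 negative controls, and the promoter motifs were chosen after seeing the data or sequences. Named in the text are all probe sets of the 6 genes and, in each list and comparison, up to 3 passing genes a direction with the smallest p, or the 1 of smallest p where none passed. Other probe sets of these genes, and the marker genes given, were chosen after their values were seen. Nearest genes were sought for members whose group means spanned over 1 on the log2 scale.

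The labels put same-numbered P0 and P4 arrays in one chip batch, and their deviations from the group means correlated at 0.33 across probe sets, so the chip batch was used as a block in an alternative fit of those 4 arrays. Since that fit also leaves out the cultured arrays, its extra calls cannot be credited to the block alone. Alternatives were other pseudocounts, filters, quantile normalization, no variance trend and leaving out each array.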

Additional observations from a re-analysis of the deposited data

How the results depend on the processing

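Among the 6 genes, 5 probe sets passed for cultured against P0 ovaries under all alternatives and without any 1 array (5 to 5), and 4 to 5 for cultured against P4 ovaries without 1 array. For P4 against P0 ovaries the count of 0 became 2 with the replicate block for chip batch and 0 to 1 without 1 array. The 8 lipid pathway genes for cultured against P0 became 5 without the variance trend and 1 to 8 without 1 array, and the 4 for cultured against P4 became 1 to 4. The 0 for P4 against P0 became 6 with the replicate block and stayed at 0 to 0 without 1 array. Over all probe sets, 66 passed for P4 against P0, against 23 with no filter, 29 without the variance trend, 314 with the replicate block and 15 to 50 without 1 array. The 332 for cultured against P0 became 84 to 356, and the 170 for cultured against P4 became 78 to 195, without 1 array. For cultured against P0, the calls of Fabp6 and Apoc1 were also lost without the variance trend, that of Cidea with no filter, and that of G0s2 with a pseudocount of 3.85, no filter, quantile normalization or no variance trend. For cultured against P4, the call of Cidea was lost with no filter. No called value changed its sign. A lone array left in a group was assumed to vary like the other groups. Signal near the dim level limits Cd36, Pparg and the second Scd probe set.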
